A study of Saccharomyces cerevisiae with 12 samples.

Results

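The comparison of hac1∆ with WT sets budding yeast cells (Saccharomyces cerevisiae) that lack HAC1 against cells that have it, in cultures that were all under reductive stress of the endoplasmic reticulum (ER). It rests on 6 of the 12 arrays of the series, the 3 whose labels read hac1∆ and the 3 that read WT, and on 5449 genes, each read from its brightest S. cerevisiae probe set. The remaining arrays are 3 of hac1∆(hsf1) and 3 of WT(hsf1). The addition (hsf1) is used here only as part of a strain name, since the labels do not explain it. Every strain was grown at 30 C in synthetic medium without uracil to early exponential phase and held in 2.5 mM dithiothreitol (DTT) for 2 h, in biological triplicate. Both members of each comparison thus carry the DTT treatment, and with 0 samples without DTT the differences below are between strains and not responses to the drug. The sources used here do not give the parent strain, the way the deletion was made or the number of independent clones. RNA of whole cultures was measured, so that a change in every cell and a change in the share of cells that make a transcript cannot be told apart.

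DTT reduces disulfide bonds, and proteins of the secretory pathway then fail to fold in the ER. In budding yeast the ER membrane kinase and nuclease Ire1 senses unfolded proteins and removes an intron from HAC1 mRNA, the tRNA ligase Trl1 joins the exons, and the Hac1 protein made from the spliced message activates genes for chaperones, oxidases, translocation, glycosylation, degradation and vesicle traffic. This route is the unfolded protein response. HAC1 is not essential in ordinary growth, but cells without it grow poorly under agents such as DTT.

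The values are the authors' log2 signals, on which a difference of 1 is a 2-fold change. Background was taken as 5.49, under which lay the means of 95% of the probe sets for another yeast on the same array. HAC1 (YFL031W) had log2 signals of 5.23, 5.24 and 5.23 in hac1∆, against 10.80, 10.37 and 10.58 in WT. All 3 hac1∆ arrays were below background. The deletion strain therefore had at least 34.1-fold lower HAC1 signal, or at least 36.7-fold lower with WT replicate 2 left out. The signal does not tell spliced from unspliced HAC1 mRNA. Among the 3 genes on either side of HAC1 on its chromosome, AGX1, which encodes an alanine:glyoxylate aminotransferase, rose by 0.86 ± 0.12 (standard error, SE, from limma; adjusted p = 0.000115). With WT replicate 2 left out, AGX1 rose by 1.05. CAK1 rose by 0.20 and RPL22B by 0.28, and MIL1, RIM15 and CAF16 were not called. The RPL22B call ended without WT replicate 2 (0.21, limma adjusted p = 0.05), without hac1∆ replicate 1 (0.22) or in a fit of hac1∆ and WT alone (0.28).

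WT replicate 2 stood apart from the other WT arrays before any gene group was compared. Across genes, which are not independent replicates, the hac1∆ arrays correlated with each other at 0.997 to 0.999, and the WT arrays at 0.988 to 0.996, with WT replicate 2 at 0.988 and 0.990. A control probe set of the reporter class with no listed gene read 11.24, 11.26 and 11.20 in hac1∆, against 5.16, 10.47 and 5.16 in WT. The same probe set read 11.22, 11.27 and 11.12 in hac1∆(hsf1), against 5.21, 5.18 and 5.23 in WT(hsf1). It was thus high on all 6 arrays of the strains without HAC1 and on WT replicate 2, and below background on the other 5 arrays. HSF1, which encodes the heat shock transcription factor, read 7.75, 7.86 and 7.87 in hac1∆, against 8.08, 9.61 and 8.11 in WT. WT replicate 2 still had HAC1 signal far above background. Over the 5449 genes, its deviation from the other two WT arrays correlated with the difference of hac1∆(hsf1) from those arrays at 0.867, with that of hac1∆ at 0.327 and with that of WT(hsf1) at −0.084. These are descriptions, since both axes share the same 2 WT arrays. The source of the deviation was not tested. Results are given with this array, and for only a part of the genes and groups that it moved also without it. The mean signal of ribosomal RNA was 9.40, 9.13 and 9.15 in hac1∆, against 9.16, 8.40 and 8.73 in WT. The median 3′ minus 5′ signal of 8 control genes, a measure of RNA integrity, was 0.74 to 0.84 in hac1∆, against 0.77 to 0.96 in WT. With 3 arrays a strain, the number of arrays limits precision throughout.

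**Figure D1:**
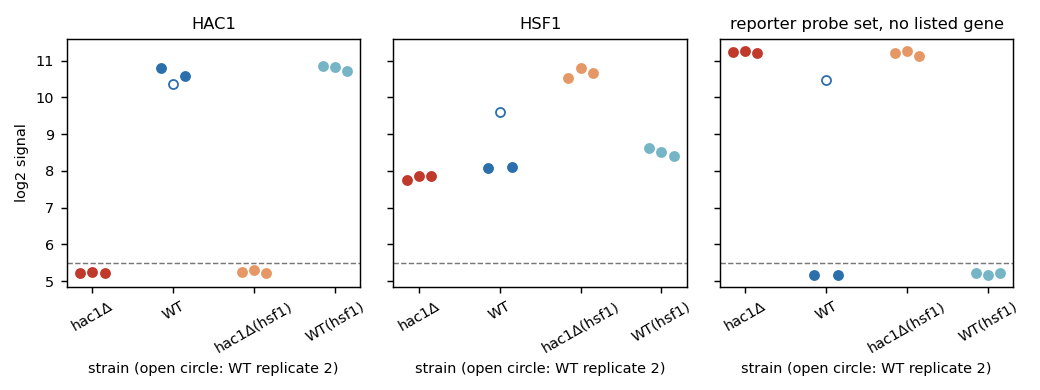
Log2 signal (vertical axis) of HAC1, HSF1 and a reporter-class probe set with no listed gene on each of the 12 arrays, by strain, with the dashed line at the background of 5.49. Each dot is 1 array and the open circle is WT replicate 2, which had HAC1 at 10.37 and the reporter probe set at 10.47, where the other WT arrays had 5.16.

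Loss of HAC1 was accompanied by lower signals of the chaperones, oxidases and translocation factors of the ER, of O-mannosyltransferases, and of a set of genes outside the secretory pathway that covered lysine, arginine and zinc metabolism and general stress proteins. Cell wall, filamentation, ergosterol and sulfate assimilation genes and ribosomal protein genes were higher, most of them by small amounts. At a limma adjusted p under 0.05, which is what "called" means here, 1214 genes (22.3% of those tested) were lower and 1550 (28.4%) were higher in hac1∆. Most changes were small. The median change was −0.33 among lower and 0.27 among higher genes, and 2280 of the 2764 called genes changed by less than 0.5. By at least 2-fold, 89 genes (1.63%) were lower and 12 (0.22%) were higher. The hac1∆ and WT arrays were fully separated for all of the 89 and of the 12, and for 3275 genes (60.1%) in all. Without WT replicate 2, limma called 1228 genes (22.5%) lower and 1591 (29.2%) higher. There, 98 genes (1.8%) were at least 2-fold lower and 20 (0.367%) at least 2-fold higher, and these held 84 of the 89 and all 12. WT replicate 2 was the WT array nearest to hac1∆ for 55 of the 89, where it was the lowest, and for 11 of the 12, where it was the highest. The median over all 5449 genes was 0.03. Counts in the gene lists below are to be read beside the shares over all genes, 22.3% lower and 28.4% higher.

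Among genes of the unfolded protein response itself, IRE1 and the splicing factors changed little. IRE1 had log2 signals of 7.21, 7.25 and 7.31 in hac1∆, against 7.06, 7.03 and 7.14 in WT, a rise of 0.18 ± 0.05 (limma adjusted p = 0.00778). The arrays did not overlap, though the gap was small. GCN4, a transcription factor of amino acid starvation, rose by 0.26. TRL1 (0.13), the phosphatase gene PTC2 (−0.06) and TPT1 (−0.09), which completes tRNA splicing, were not called.

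Apart from HAC1, the largest falls were in ULI1 and YOR387C. ULI1, named for its induction in the unfolded protein response, had log2 signals of 6.39, 6.35 and 6.44 in hac1∆, against 10.84, 10.52 and 10.70 in WT, and fell 19.6-fold (log2 change −4.29 ± 0.11, limma adjusted p = 4.53e-11). YOR387C, whose function is not known, had 5.65, 5.82 and 5.84 in hac1∆, against 9.80, 9.68 and 9.95 in WT, and fell 16.5-fold (−4.04 ± 0.18, adjusted p = 1.39e-08 from limma). In both, each hac1∆ array lay about 4 log2 units under each WT array, and the hac1∆ signals of YOR387C were close to background, where fold changes are compressed. VEL1, which is also of unknown function, had 6.06, 6.07 and 6.0 in hac1∆, against 6.50, 6.45 and 6.68 in WT, and fell by 0.50 (limma adjusted p = 0.0174). That call ended without WT replicate 3 (−0.44) and without hac1∆ replicate 3 (−0.48).

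The ER Hsp70 and its partners fell as a group. Of 12 genes measured, 10 fell and 1 rose, with a median change of −0.91, and without WT replicate 2 the counts were 10 and 0 and the median −0.995. SIL1 and LHS1 encode nucleotide exchange factors of the Hsp70 Kar2. SIL1 had log2 signals of 7.26, 7.17 and 7.30 in hac1∆, against 9.83, 9.37 and 9.70 in WT, and fell 5.22-fold (−2.39 ± 0.09, limma adjusted p = 5.75e-09). LHS1 had 7.89, 7.88 and 7.85 in hac1∆, against 9.64, 9.07 and 9.63 in WT, a change of −1.57 ± 0.12 (limma adjusted p = 5.88e-07). KAR2 had 10.27, 10.29 and 10.38 in hac1∆, against 11.94, 11.83 and 11.96 in WT, a change of −1.60 ± 0.06 (limma adjusted p = 5.75e-09). No arrays of the strains overlapped for these genes, and WT replicate 2 was the lowest WT array for each. The 4 genes of J-proteins, which stimulate Hsp70 chaperones, also fell. JEM1 had 6.98, 6.94 and 6.96 in hac1∆, against 8.57, 7.99 and 8.54 in WT, and fell 2.66-fold. ERJ5 changed by −1.13, SCJ1 by −0.84 and SEC63, the J-protein of the translocation channel, by −0.64. Prolyl isomerase genes moved unequally, with FPR2 at −0.98 and CPR5 at −0.30. SHR3, an ER chaperone of amino acid permeases, fell by 0.34. Calnexin, encoded by CNE1, was not called (0.09). ROT1, which encodes an ER membrane chaperone, rose by 0.18 (limma adjusted p = 0.0437), a call that ended in 12 of 21 alternatives, among them leaving out any 1 of the 6 arrays (0.15 to 0.20).

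Disulfide formation genes divided into members with large falls and members with small ones. Of 7 measured, 6 fell and 0 rose, with a median of −0.82, or −0.88 without WT replicate 2. ERO1 encodes the oxidase that hands disulfides to protein disulfide isomerases. It had log2 signals of 8.97, 8.93 and 8.91 in hac1∆, against 11.16, 10.70 and 11.20 in WT, and fell 4.23-fold (−2.08 ± 0.12, limma adjusted p = 8.43e-08). The isomerase relative MPD1 had 7.16, 7.17 and 7.21 in hac1∆, against 9.47, 9.05 and 9.45 in WT, and fell 4.42-fold (−2.15 ± 0.09, limma adjusted p = 1.39e-08). EUG1, another relative, had 7.09, 7.14 and 7.20 in hac1∆, against 8.90, 8.43 and 8.84 in WT, and fell 2.99-fold. The hac1∆ and WT arrays of each of these genes were far apart, with WT replicate 2 the lowest WT array. MPD2 changed by −0.82 and the thiol oxidase gene ERV2 by −0.34. The main isomerase gene PDI1 had 11.29, 11.35 and 11.33 in hac1∆, against 11.69, 11.49 and 11.62 in WT, and fell 1.21-fold (limma adjusted p = 0.00199). EPS1, a membrane-bound relative, was not called (0.07), and its arrays overlapped.

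**Figure D2:**
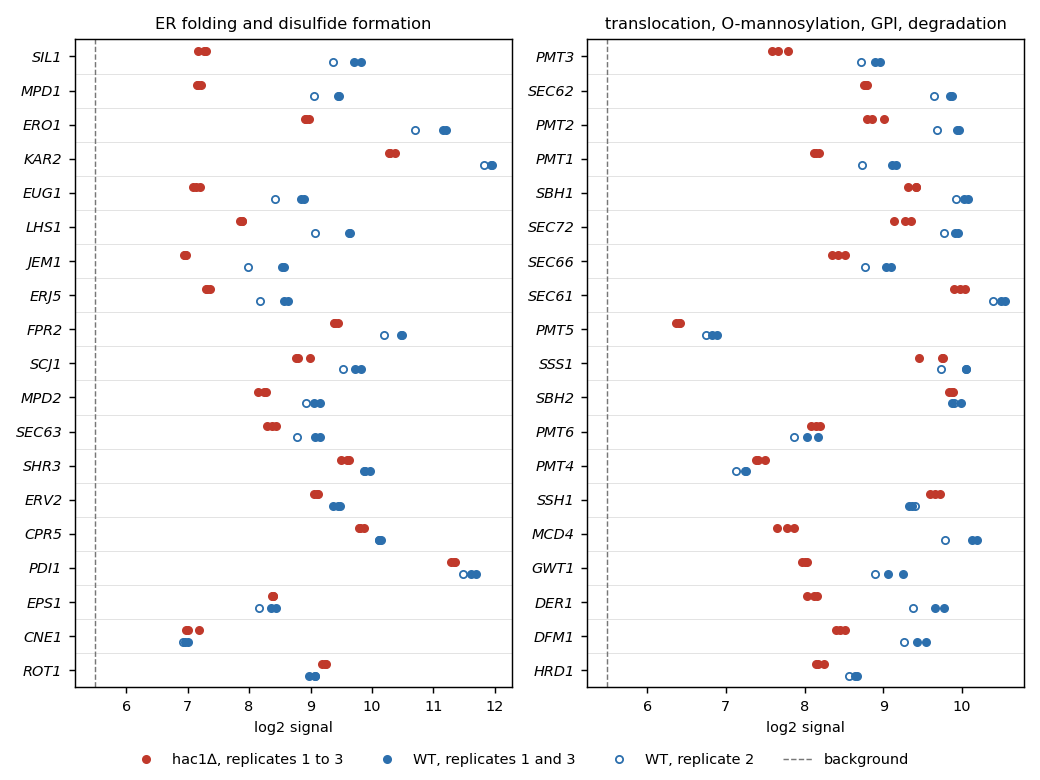
Log2 signal (horizontal axis) on each array for genes of ER folding and disulfide formation (left) and for translocation, O-mannosylation, GPI anchor and degradation genes (right), with hac1∆ above WT in each row and the dashed line at background. The hac1∆ arrays of SIL1 lie between 7.17 and 7.30, against 9.37 to 9.83 in WT, and the open circle of WT replicate 2 is the lowest WT value for SIL1, MPD1, ERO1, KAR2, EUG1, LHS1 and JEM1.

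Genes of the translocation channels, through which new proteins enter the ER, were mostly lower. Of 8 genes 6 fell and 1 rose, with a median of −0.52, or −0.595 without WT replicate 2. SEC62 had log2 signals of 8.76, 8.79 and 8.78 in hac1∆, against 9.85, 9.65 and 9.87 in WT, a change of −1.02 ± 0.06 (limma adjusted p = 1.67e-07). Its partners SEC72 (−0.62) and SEC66 (−0.54) and the pore subunits SEC61 (−0.50) and SBH1 (−0.63) also fell. SSH1, the pore of the second channel, which serves co-translational import, rose by 0.29, and its subunit SBH2 was not called (−0.06). Of 8 genes of the signal recognition particle and its receptor, which guide co-translational import, 0 fell and 3 rose (among them SRP68 at 0.28 and SRP54 at 0.23). In the signal peptidase, 2 of 4 genes fell, SPC2 (−0.42) and the catalytic SEC11 (−0.39). Among 13 genes of membrane protein insertion 4 fell, led by EMC6 at −0.38, and EMC1 rose by 0.54.

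Glycosylation genes did not move as one group. The O-mannosyltransferases start mannose chains on serine and threonine in the ER. They had 4 of 6 members lower and 1 higher, with a median of −0.64, or −0.72 without WT replicate 2. PMT3 had log2 signals of 7.58, 7.66 and 7.79 in hac1∆, against 8.89, 8.72 and 8.96 in WT, and fell 2.26-fold. PMT2 changed by −0.97, PMT1 by −0.85 and PMT5 by −0.42, whereas PMT4 rose by 0.22. In the assembly of the lipid-linked sugar for N-glycosylation, 7 of 17 genes fell and 7 rose, with a median of 0.02. Genes that make the lipid carrier or load it with mannose were among those that fell furthest. DPM1, the dolichol phosphate mannose synthase, had 9.05, 8.96 and 8.98 in hac1∆, against 10.14, 9.83 and 10.14 in WT, and fell 2.06-fold. The dolichol kinase gene SEC59 changed by −0.86, the prenyltransferase gene RER2 by −0.70 and the mannosyltransferase gene ALG3 by −0.62, while CAX4, a dolichol pyrophosphatase, rose by 0.34. Of 9 genes of the oligosaccharyltransferase, which moves that sugar to the protein, 3 fell, led by OST2 (−0.71) and SWP1 (−0.49), and OST1 rose by 0.23. Of 5 genes that trim the glycan, CWH41 (0.38) and ROT2 (0.28), both of glucose removal, rose and the mannosidase gene MNS1 fell by 0.15.

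In the GPI anchor pathway, which attaches proteins to a lipid of the membrane, 10 of 27 genes fell and 3 rose, and the median was −0.08. The list's largest changes were in MCD4 and GWT1. MCD4, which adds phosphoethanolamine to the first mannose of the anchor, had log2 signals of 7.65, 7.77 and 7.86 in hac1∆, against 10.19, 9.78 and 10.13 in WT, and fell 4.83-fold (−2.27 ± 0.09, limma adjusted p = 5.75e-09). GWT1, which acylates its inositol, changed by −1.07, and GPI10 by −0.50. The arrays of MCD4 were more than 1 log2 unit apart between strains, while 14 of the 27 genes were not called.

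ER-associated degradation sends misfolded proteins to the proteasome. Of its 16 genes 7 fell and 3 rose, with a median of −0.04. DER1 had log2 signals of 8.12, 8.03 and 8.16 in hac1∆, against 9.66, 9.38 and 9.77 in WT, and fell 2.83-fold (−1.50 ± 0.08, limma adjusted p = 5.81e-08). Its relative DFM1 changed by −0.96, the ubiquitin ligase gene HRD1 by −0.44 and its partner HRD3 by −0.36. Of the 3 members that rose, UBX4 (0.29) and NPL4 (0.28) encode partners of the Cdc48 ATPase, which pulls proteins out of the membrane, and CDC48 itself was not called (0.03). Among 33 proteasome genes 0 fell and 22 rose, each by less than 0.5 (median 0.19).

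Some vesicle traffic genes were lower at several steps. Of 10 COPII coat genes 7 fell and 1 rose, with a median of −0.31. SFB2 changed by −0.61, the GTPase gene SAR1 by −0.61 and SFB3 by −0.48, while SED4, a relative of the COPII exchange factor, rose by 0.52. Of 16 export receptors and p24 proteins 7 fell and 1 rose (median −0.11). The soluble cargo receptor gene ERV29 changed by −0.93, and the p24 genes ERP2 and ERP1 by −0.86 and −0.79. Of 17 genes of the COPI coat and retrieval to the ER, 6 fell and 3 rose (median −0.02), with RET3 at −0.79, the HDEL receptor gene ERD2 at −0.67 and RER1 at −0.62. In the Golgi, 3 of 21 glycosylation genes fell and 8 rose. HOC1, a mannosyltransferase, had log2 signals of 8.76, 8.79 and 8.77 in hac1∆, against 9.97, 9.74 and 10.02 in WT, and fell 2.2-fold. OCH1, which starts the outer mannose chain, had 9.33, 9.30 and 9.38 in hac1∆, against 8.64, 8.65 and 8.42 in WT, and rose 1.7-fold (limma adjusted p = 5.21e-06). Over the 201 measured genes of the 17 secretory lists, HAC1 left out, 83 fell and 38 rose, and the median was −0.06. Over all genes tested, 22.3% were called lower and 28.4% higher, and the median was 0.03.

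**Figure D3:**
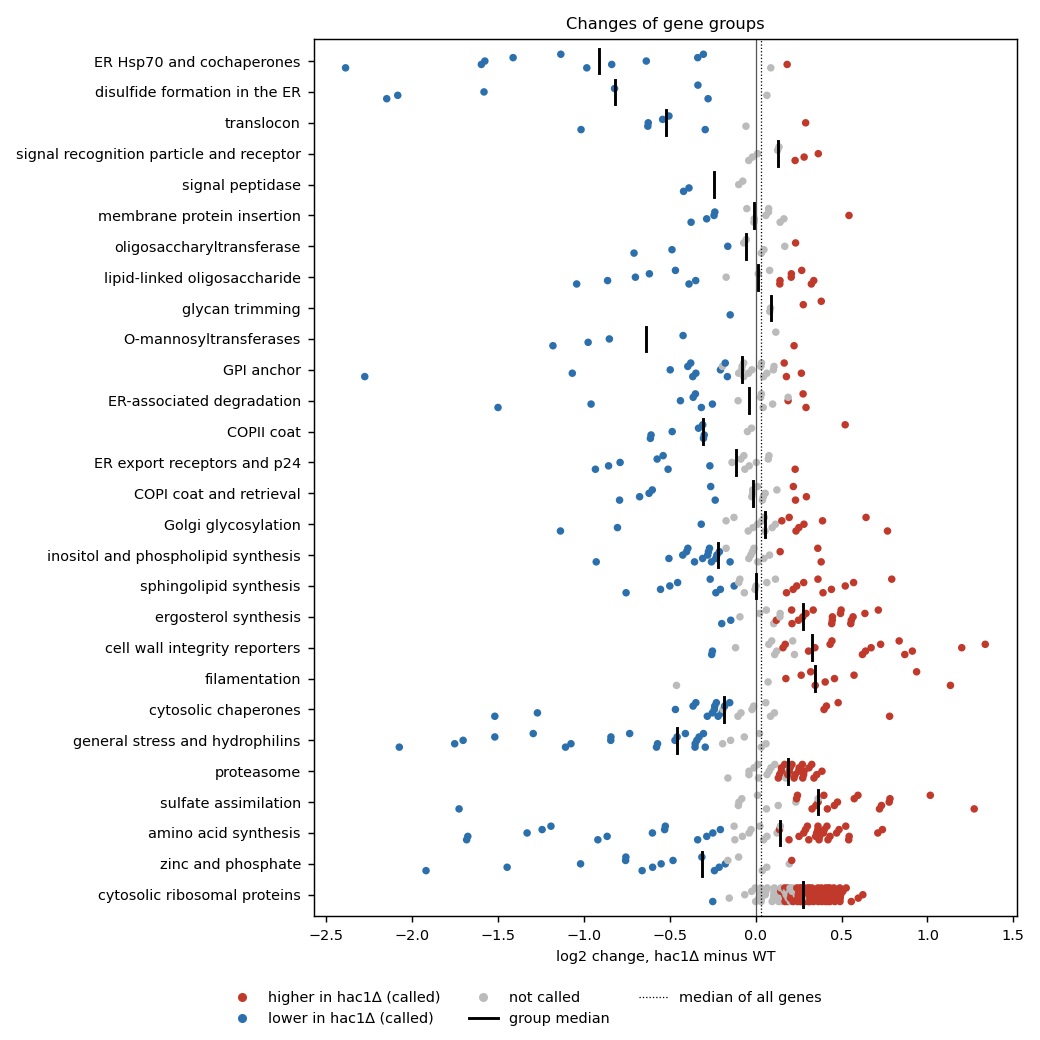
Log2 change of each member, hac1∆ minus WT (horizontal axis), in 28 gene groups, with a black bar at each group's median and a dotted line at the median of all genes, 0.03. Blue dots are called lower and red dots called higher in hac1∆, and the ER Hsp70 and disulfide groups have the lowest medians, −0.91 and −0.82.

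Lipid genes moved in different directions by pathway. Of 26 inositol and phospholipid genes 15 fell and 3 rose, with a median of −0.22. SCS3, an ER membrane protein needed for normal growth without inositol, changed by −0.93, the acyltransferase gene SLC1 by −0.50, and INO2, which encodes an activator of these genes, by −0.42. INO1, the inositol synthase gene, had log2 signals of 11.52, 11.56 and 11.49 in hac1∆, against 11.90, 11.83 and 11.77 in WT, and fell 1.24-fold (limma adjusted p = 0.00021). Ergosterol genes went the other way, with 17 of 25 higher and 2 lower (median 0.28). ERG6 had 10.74, 10.71 and 10.65 in hac1∆, against 9.97, 10.10 and 9.89 in WT, and rose 1.64-fold. ERG4 (0.64) and ERG1 (0.57) also rose. Sphingolipid genes were mixed, 8 lower and 10 higher of 25, between SUR2 at −0.75 and YSR3 at 0.79.

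Most general stress genes and several heat shock genes were lower. Of 27 general stress genes, many of which are induced by the factors Msn2 and Msn4, 21 fell and 0 rose, with a median of −0.46. SIP18 encodes a hydrophilin, a protein of dry or salt-stressed cells. It had log2 signals of 8.95, 9.19 and 9.05 in hac1∆, against 11.17, 11.00 and 11.24 in WT, and fell 4.21-fold. The catalase gene CTT1 had 8.57, 8.85 and 8.75 in hac1∆, against 10.66, 10.32 and 10.44 in WT, and fell 3.37-fold. HSP12 fell 1.28-fold, at signals near the top of the range. Of 26 cytosolic chaperone genes, SSA3 included in both lists, 14 fell and 4 rose. SSA4, an inducible Hsp70, had 9.30, 9.41 and 9.33 in hac1∆, against 10.49, 10.94 and 10.41 in WT, a change of −1.27 ± 0.10 and of −1.11 without WT replicate 2, which was the highest WT array. SSA3 had 8.09, 8.20 and 8.22 in hac1∆, against 9.36, 10.33 and 9.37 in WT, with WT replicate 2 again the highest (−1.52 with it and −1.19 without it). The 4 that rose, SSB2 (0.78), SSB1 (0.48), ZUO1 (0.41) and SSZ1 (0.40), all encode chaperones bound to the ribosome, a grouping made after the values were seen. The SSZ1 call ended without WT replicate 2 (0.30), WT replicate 3 (0.36), hac1∆ replicate 1 (0.38) or hac1∆ replicate 2 (0.39). HSF1 was called lower at −0.77 ± 0.30 (limma adjusted p = 0.0464), a call that ended in 11 of 21 alternatives. These were the fit of hac1∆ and WT alone, the floor at background, and leaving out any 1 array of hac1∆, hac1∆(hsf1) or WT(hsf1), with changes of −0.79 to −0.73. Without WT replicate 2 the change was −0.26 (limma adjusted p = 0.0145).

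Lysine synthesis genes were lower at every step measured. All 7 genes of the pathway fell, with a median of −0.92, a grouping made after their values were seen. LYS20, a homocitrate synthase that opens the pathway, had log2 signals of 9.17, 9.16 and 9.46 in hac1∆, against 10.99, 10.82 and 11.01 in WT, and fell 3.21-fold (limma adjusted p = 5.17e-08). LYS9, a saccharopine dehydrogenase, had 9.23, 9.22 and 9.32 in hac1∆, against 11.08, 10.83 and 10.88 in WT, and fell 3.19-fold. The smallest change was that of LYS21, the second homocitrate synthase gene, at −0.53. Arginine genes, also grouped after the values were seen, fell in 5 of 5 cases (median −0.53). ARG1, argininosuccinate synthase, had 7.85, 7.96 and 8.17 in hac1∆, against 9.37, 9.30 and 9.31 in WT, and fell 2.51-fold, and the ornithine transcarbamylase gene ARG3 changed by −1.24. The whole list of 49 amino acid synthesis genes had 14 lower and 25 higher (median 0.14, and 0.25 without WT replicate 2). GLN1, glutamine synthetase, rose by 0.74 and SER3, of serine synthesis, by 0.71. Of 19 amino acid permease genes, PUT4, for proline, changed by −1.32 and AGP3 by −0.94, and BAP2 and BAP3, for branched amino acids, rose by 0.73 and 0.72.

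Zinc genes fell with a wide spread among the hac1∆ arrays. All 6 zinc genes of the zinc and phosphate list fell (median −0.89, grouped after the values were seen). ZAP1, the zinc-responsive activator, had log2 signals of 7.08, 7.80 and 7.92 in hac1∆, against 9.16, 8.95 and 9.02 in WT, and fell 2.72-fold (limma adjusted p = 2.27e-05). ADH4, an alcohol dehydrogenase induced when zinc is scarce, had 8.34, 9.29 and 9.74 in hac1∆, against 11.09, 10.95 and 11.07 in WT, and fell 3.78-fold. ZPS1, a cell surface protein of the same regulation and outside the list, had 8.46, 9.58 and 10.17 in hac1∆, against 11.56, 11.56 and 11.63 in WT, and fell 4.54-fold (−2.18 ± 0.29, limma adjusted p = 6.88e-05). Replicate 1 was the lowest hac1∆ array for all 3, and the WT arrays lay close together above them. The uptake genes ZRT1 and ZRT2 changed by −0.76 and −1.02.

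Most sulfate assimilation genes rose, and a sulfate permease gene fell. Of 26 genes 17 rose and 1 fell, with a median of 0.36. MET1, which makes the siroheme of sulfite reductase, had log2 signals of 9.18, 9.45 and 8.79 in hac1∆, against 7.88, 7.95 and 7.77 in WT, and rose 2.42-fold (1.27 ± 0.13, limma adjusted p = 6.88e-06). MHT1, which methylates homocysteine, had 8.25, 8.40 and 7.92 in hac1∆, against 7.10, 7.32 and 7.11 in WT, and rose 2.02-fold. STR3 and CYS3, which exchange sulfur between cysteine and homocysteine, rose by 0.78 and 0.78. SUL1, the high-affinity sulfate permease, had 6.87, 7.30 and 6.54 in hac1∆, against 8.72, 8.62 and 8.55 in WT, and fell 3.31-fold. PDC6, a pyruvate decarboxylase known to be induced when sulfur is short, had 8.66, 9.15 and 8.60 in hac1∆, against 10.38, 10.11 and 10.18 in WT, and fell 2.68-fold. Replicate 2 was the highest hac1∆ array for all 4 of MET1, MHT1, SUL1 and PDC6.

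Single members of respiratory gene pairs had large falls. CYC7, the second cytochrome c, had log2 signals of 6.55, 6.56 and 6.53 in hac1∆, against 8.98, 8.52 and 9.03 in WT, and fell 4.91-fold (−2.29 ± 0.11, limma adjusted p = 2.76e-08), while CYC1 was not called (−0.06). SHH3, a relative of a succinate dehydrogenase subunit, had 6.93, 7.03 and 7.14 in hac1∆, against 9.17, 9.26 and 9.40 in WT, and fell 4.72-fold, while SDH3 was not called (−0.04). Of the list of 41 genes of respiration and the tricarboxylic acid cycle 13 fell and 5 rose, led by NDE2 at −1.08. Of 22 heme and hypoxia genes 8 fell and 2 rose (median −0.04). Of 21 glycolysis and fermentation genes 4 fell and 3 rose. HXT7, a high-affinity hexose transporter whose probe set may also read its near-identical neighbour HXT6, had 8.33, 8.46 and 8.46 in hac1∆, against 10.34, 10.31 and 10.30 in WT, and fell 3.73-fold.

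The cell wall group rose. Of 24 genes listed as reporters of the cell wall integrity pathway 15 rose and 2 fell (median 0.33), and 18 rose without WT replicate 2 (median 0.37). The list also holds a nuclear pore gene, whose symbol is also an older name of a kinase gene of the pathway. PRM5 had log2 signals of 9.75, 9.73 and 9.75 in hac1∆, against 8.03, 8.98 and 8.22 in WT, a rise of 1.34 ± 0.17 (limma adjusted p = 5.87e-05) and of 1.62 without WT replicate 2. YPS3, an aspartyl protease of the surface, had 10.55, 10.57 and 10.66 in hac1∆, against 9.35, 9.55 and 9.29 in WT, and rose 2.3-fold. SLT2, the pathway's MAP kinase, had 10.11, 10.06 and 10.11 in hac1∆, against 8.98, 9.74 and 8.82 in WT, a rise of 0.91 and of 1.19 without WT replicate 2. For these 3 genes WT replicate 2 was the highest WT array and lay between the strains. CWP1, a wall mannoprotein, rose by 0.87. Of 15 calcineurin and calcium genes 6 rose and 2 fell, from RCN1, a regulator of calcineurin, at 0.80 to SPF1, an ATPase of the ER membrane, at −0.45.

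Filamentation genes were called higher in 9 of 11 cases and lower in 0 (median 0.35). The lowest change among them, −0.46, was not called. Without WT replicate 2, 8 of the 11 were called higher (median 0.47). PGU1, a secreted pectin-degrading enzyme, had log2 signals of 6.77, 6.81 and 6.71 in hac1∆, against 5.58, 5.75 and 5.56 in WT, and rose 2.19-fold, with WT close to background. SVS1 rose by 0.94, CLN1 by 0.57 and the MAP kinase gene KSS1 by 0.46. Of 24 pheromone response genes 9 rose and 5 fell. PRM10 had 8.92, 8.94 and 8.97 in hac1∆, against 7.36, 7.78 and 7.32 in WT, and rose 2.75-fold, and FAR1, the cell cycle inhibitor of mating, fell by 0.62.

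Mating type markers were checked because a difference in cell type would alter many genes. STE2, the α-factor receptor gene of a cells, had log2 signals of 9.15, 9.15 and 9.21 in hac1∆, against 9.22, 9.34 and 9.16 in WT. STE3, the receptor gene of α cells, had 6.64, 6.63 and 6.79 in hac1∆, against 6.56, 6.74 and 6.70 in WT, and neither was called. Of the 6 α-cell genes measured, SAG1 (0.01) and MF(ALPHA)2 (0.03) were not called. MF(ALPHA)2 was below background on every hac1∆ and WT array, so its value cannot show a change. Of 7 a-cell genes 4 fell and 1 rose, with a median of −0.26, and 3 fell without WT replicate 2. MFA1, an a-factor gene, fell by 0.85 and BAR1, the protease that degrades α-factor, rose by 0.39. MF(ALPHA)1, an α-factor gene, had log2 signals of 6.12, 6.17 and 6.22 in hac1∆, against 8.17, 8.45 and 8.88 in WT, and fell 5.02-fold (−2.33 ± 0.16, limma adjusted p = 2.86e-07). AFB1 had 7.93, 7.88 and 7.99 in hac1∆, against 6.16, 7.27 and 6.41 in WT, and rose 2.49-fold. WT replicate 2 was its highest WT array and lay nearest to hac1∆. URA3, a gene of uracil synthesis and a common plasmid marker, had 12.15, 12.18 and 12.06 in hac1∆, against 11.88, 11.62 and 11.86 in WT, a rise of 0.34 ± 0.07 (limma adjusted p = 0.00116).

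The remaining genes with the largest rises belong to no single list. NCA3, of the SUN family of wall proteins, had log2 signals of 9.50, 9.49 and 9.70 in hac1∆, against 7.37, 8.62 and 7.17 in WT, and rose 3.59-fold, or 4.9-fold without WT replicate 2, which lay between the strains. ADH6, an NADPH-dependent alcohol dehydrogenase, had 10.17, 10.09 and 10.02 in hac1∆, against 8.52, 8.83 and 8.32 in WT, and rose 2.91-fold (1.54 ± 0.10, limma adjusted p = 1.45e-07). No hac1∆ array of either gene overlapped a WT array. YPL088W, a putative aryl alcohol dehydrogenase, rose 2.1-fold, NPT1, of NAD salvage, 2.01-fold, and SMP1, a transcription factor, 2.0-fold.

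**Figure D4:**
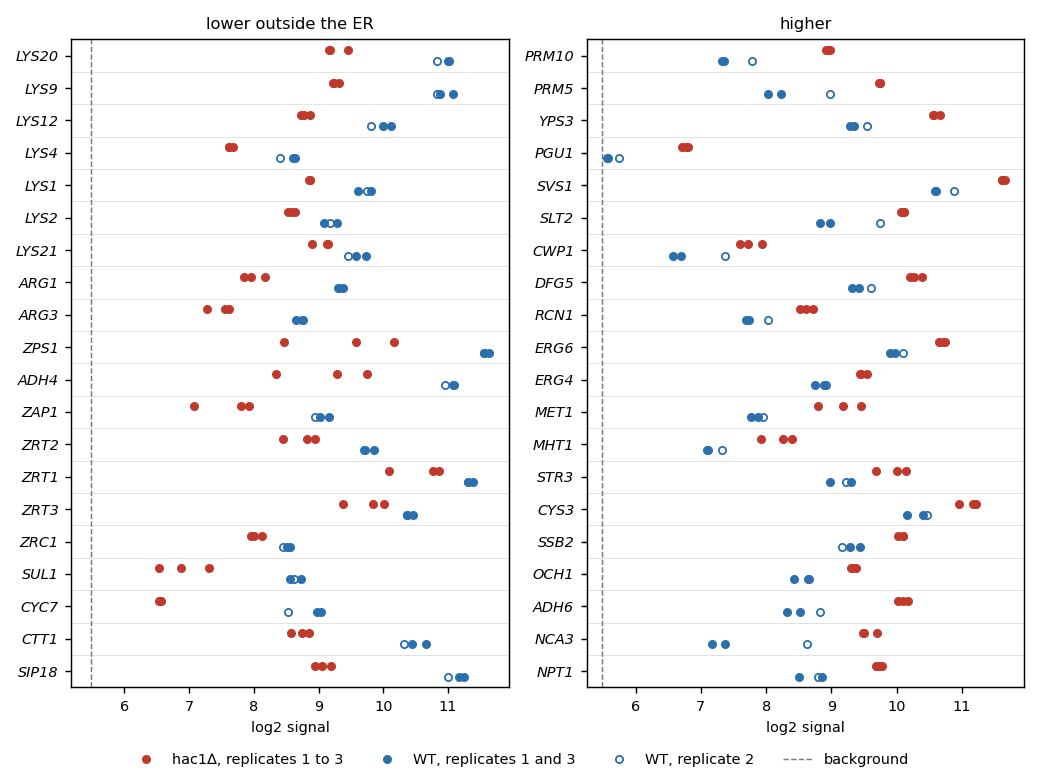
Log2 signal (horizontal axis) on each array for 20 genes that were lower outside the ER lists (left) and 20 that were higher (right), with hac1∆ above WT in each row and the dashed line at background. The 3 hac1∆ arrays of ZPS1 spread from 8.46 to 10.17, below WT arrays of 11.56 to 11.63, and the open circles of WT replicate 2 lie between the strains for NCA3, PRM5 and SLT2.

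Most genes of cytosolic ribosomal proteins rose slightly. Of 128 genes listed as cytosolic ribosomal protein genes 89 rose and 1 fell, with a median of 0.28, and 73 rose without WT replicate 2 (median 0.22). The list also holds an RNase P gene with a similar symbol. Ribosomal protein genes include near-identical pairs whose probe sets cannot be told apart with certainty. Of 36 ribosome biogenesis genes 13 rose and 2 fell. Of 25 vacuole and autophagy genes 4 rose and 6 fell, among them ATG39, a receptor for autophagy of the nuclear envelope and ER, at −0.88. Of 25 iron genes 9 fell and 3 rose, from FIT2, a wall mannoprotein of siderophore uptake, at −0.67 to FRE1, a metal reductase, at 0.89.

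The strains with (hsf1) in their names gave the same deletion a further comparison that shares no array with the one above. In hac1∆(hsf1) against WT(hsf1), 1949 genes (35.8%) were lower and 2274 (41.7%) higher. HSF1 had log2 signals of 10.54, 10.81 and 10.66 in hac1∆(hsf1), against 8.63, 8.51 and 8.41 in WT(hsf1), so that the strains of this pair also differed in HSF1. Of the 89 genes that had fallen by at least 2-fold in hac1∆, 36 were lower, 45 higher and 8 not called in hac1∆(hsf1) against WT(hsf1). Of 15 secretory genes among the 89, 14 were lower and 0 higher, and ERO1 was not called. Of the 73 genes outside the secretory lists, HAC1 left out, 21 were lower and 45 higher, and 7 of the 7 general stress genes were higher.

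The interaction is the change between hac1∆(hsf1) and WT(hsf1) minus that between hac1∆ and WT. It was called for 3795 genes (69.6%), for 9 of the 15 secretory genes and for 69 of the 73 others. Without WT replicate 2 it was called for 3776 genes, for 11 of the 15 and for 70 of the 73. The 15 and the 73 were chosen by their change between hac1∆ and WT, which the interaction subtracts. Their counts are thus partly set by that choice and cannot be weighed against the share over all genes. KAR2 had log2 signals of 11.32, 11.49 and 11.25 in hac1∆(hsf1), against 11.60, 11.68 and 11.64 in WT(hsf1), and its change of −0.29 ± 0.06 in this pair differed from that between hac1∆ and WT by 1.31 ± 0.09 (limma adjusted p = 3.78e-08). ERO1 had 10.41, 10.09 and 10.03 in hac1∆(hsf1), against 10.45, 10.46 and 10.44 in WT(hsf1), an interaction of 1.81 ± 0.17 (limma adjusted p = 8.22e-07). MPD1 changed by −2.17 ± 0.09 in this pair, and its interaction of −0.03 was not called. SIP18 had 9.88, 9.96 and 9.76 in hac1∆(hsf1), against 6.63, 6.83 and 7.20 in WT(hsf1), and its interaction of 5.05 ± 0.17 was the largest among genes changed at least 2-fold between hac1∆ and WT (limma adjusted p = 2.13e-10). LYS20 changed by 1.68 ± 0.09 in this pair and by −1.68 between hac1∆ and WT. Of the 12 genes at least 2-fold higher in hac1∆, 10 were also higher in hac1∆(hsf1) than in WT(hsf1), and ADH6 (0.22) and NPT1 (−0.11) were not called there.

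**Figure D5:**
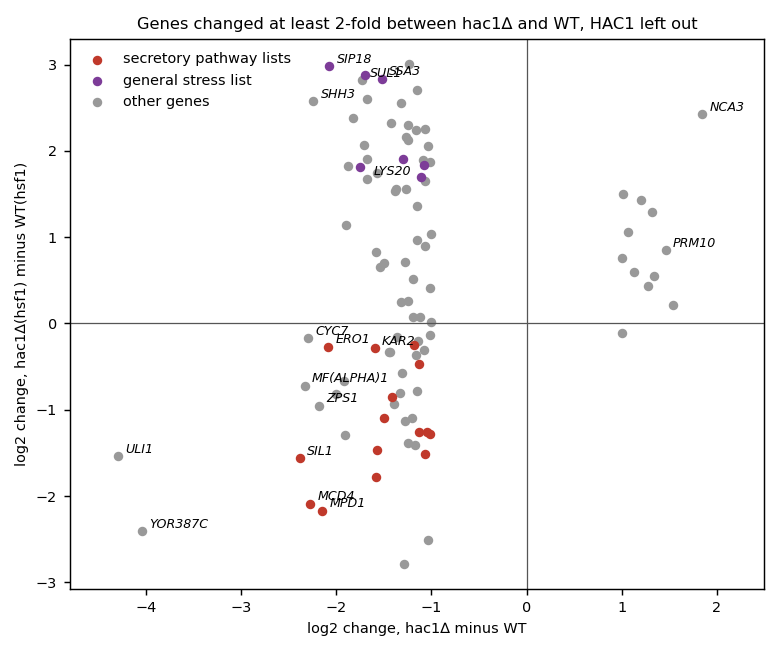
Log2 change between hac1∆(hsf1) and WT(hsf1) (vertical axis) against that between hac1∆ and WT (horizontal axis) for the genes called at least 2-fold lower or higher between hac1∆ and WT, with HAC1 left out and each dot 1 gene. Secretory genes (red) lie below 0 on both axes, from MPD1 at −2.17 to PMT3 at −0.25 in the pair with (hsf1), and general stress genes (purple) lie above 0 on the vertical axis, as SIP18 does at 2.98.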

How the data were processed

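The authors deposited a log2 signal for every probe set of each Affymetrix yeast array, and these were used unchanged. PLIER is named, with no version, in the submitters' processing notes, and the sources used here do not state the background correction or the normalization. The log2 unit was inferred from the range, 4.84 to 12.75 over 10928 probe sets, with array medians of 5.995 to 6.065.

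The platform annotation placed 5498 probe sets in S. cerevisiae and gave no gene for 3517, and 166 were controls. Another 1746 with 1 gene symbol had no match in the S. cerevisiae gene table and were taken as Schizosaccharomyces pombe. The 1 probe set with several symbols was left out before matching. For 47 genes with several probe sets the brightest was used, and 12 symbols were updated, which left 5449 genes, 5236 of them with a mean above background.

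With limma 3.58.1 in R 4.3.3, a mean for each strain was fitted over the 12 arrays together (8 residual degrees of freedom), with Benjamini-Hochberg adjustment of p-values across all genes. The fit was tested on simulated data. Where nothing says that replicates came from independent clones, p-values measure the spread between these cultures. Same-numbered replicates did not pair: their deviations correlated at 0.119, −0.007 and −0.011. Alternatives were other normalizations, weights, filters and probe set rules, a replicate block and each array left out.

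The comparison, the 48 gene lists and the 5 further groupings were chosen with earlier results of these data known. Genes named were a fixed set (HAC1, IRE1, KAR2, SIL1, LHS1, PDI1, ERO1, INO1, HSF1, SSA4, HSP12, URA3, ULI1, YOR387C and VEL1), the 12 largest rises and 12 largest falls whose arrays did not overlap, up to 4 called members of each list with the largest and up to 2 members with the smallest change, the neighbours of HAC1 and the 6 largest interactions. CAX4, CPR5, CYC1, CYS3, ERJ5, ERV2, FPR2, GLN1, LYS21, MF(ALPHA)2, NPL4, PHO81, SCJ1, SEC61, SEC63, SER3, SHR3, SSZ1, STE3, TRL1, UBX4, VTC3 and ZUO1 were named outside this rule, after their values were seen. Planned searches of promoters and protein ends were not made, because no sequences were used here.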

Additional observations from a re-analysis of the deposited data

Results flagged for a closer look

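The change between the strains with (hsf1) in their names and the change between hac1∆ and WT differed by a test of the difference itself, limma's interaction term at an adjusted p under 0.05, for 3795 genes. Each value below is the log2 change of hac1∆(hsf1) over WT(hsf1) minus that of hac1∆ over WT. Among ER genes it was 1.81 for ERO1, 1.31 for KAR2 and 0.82 for SIL1, whose falls were smaller in the (hsf1) pair, and −0.29 for IRE1. Among the genes of unknown function it was 2.75 for ULI1, 1.64 for YOR387C and −1.79 for VEL1. It was 2.92 for HSF1, 3.43 for SSA4, 4.35 for SSA3, 1.26 for HSP12, 5.05 for SIP18 and 4.58 for GRE1, a further hydrophilin gene. It was 4.81 for SHH3, 4.54 for SUL1, 4.28 for SPG4, a gene of stationary phase, 0.74 for INO1 and −1.65 for URA3. SIP18, GRE1, SHH3, SUL1, SSA3, SSA4, SPG4, HSP12 and INO1 were called lower in hac1∆ than in WT and higher in hac1∆(hsf1) than in WT(hsf1).

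Outside the gene comparison, 3517 probe sets with no listed gene were tested, and limma called 94 of them, 56 lower and 38 higher in hac1∆. The reporter-class probe set read 10.47 on WT replicate 2, where the other WT arrays were below background, and 37 of the 47 reporter probe sets were above background on no array. Of the others, 4 were lower by at least 2-fold in hac1∆ than in WT, at log2 changes of −1.52, −1.45, −1.18 and −1.05, and changes of 2.19 and 1.37 were found in those higher by at least 2-fold. They stand apart because no gene is listed for them, so that what they measure is not known here.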

How the results depend on the processing

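Over 21 alternatives, 42 of the 48 list medians moved by less than the spread between replicates, and the median of all genes lay between 0.02 and 0.04. The number of genes at least 2-fold higher was 20 without WT replicate 2 and 9 to 20 over all arrays left out in turn, and of genes at least 2-fold lower 85 to 98. With each array left out in turn, the median of the oligosaccharyltransferase genes ran from −0.093 to 0.016, the highest without hac1∆ replicate 3, of ER-associated degradation from −0.076 to −0.010, of heme and hypoxia genes from −0.053 to −0.011 and of amino acid synthesis from 0.14 to 0.25. Quantile normalization gave −0.155 for phospholipid genes and −0.014 for oxidative stress genes, and array weights gave 0.20 for amino acid synthesis. The causes were not tested. With the replicate number as a block, 1585 genes were higher and 1259 lower, and 12 and 89 by at least 2-fold, and among the genes named the block ended the call of ROT1 alone. Of the 173 genes named, 6 lost their call under some alternative (HSF1, PHO81, ROT1, RPL22B, SSZ1 and VEL1) and 0 changed direction while called. Fits of hac1∆ and WT alone give no interaction. Where signals lay near background, fold changes are compressed.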

Other observations

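Of 66 genes listed as mitochondrial ribosomal protein genes 21 rose and 10 fell in hac1∆ relative to WT, with a median change of 0.07. The list includes a gene of unknown function that carries such a name. Of 31 genes of oxidative stress and detoxification 13 fell and 5 rose (median −0.07), with ADH6 the highest at 1.54. The peroxidase gene CCP1 changed by −0.66 and AAD10, a putative aryl alcohol dehydrogenase, by −0.76. PDR5, a drug efflux pump, rose by 0.59. Of 12 fatty acid synthesis genes 2 fell and 3 rose, with FAA1, an acyl-CoA synthetase, at −0.32 and TSC13, which elongates very long chains, at 0.37.

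Of 13 hexose transporter genes 5 fell and 1 rose. HXT5 changed by −0.72 and HXT4 by −0.59, whereas HXT1, the transporter of high glucose, rose by 0.41. Of 13 phosphate genes, grouped after their values were seen, 7 fell and 1 rose. VTC3, of polyphosphate synthesis, had the largest fall among them at −0.75, and PHO81, a regulator of phosphate uptake, rose by 0.21, a call that ended without WT replicate 1 (0.19) or without hac1∆ replicate 3 (0.17). Of 7 a-cell genes 4 fell and BAR1 rose.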
